A study of Mus musculus with 4 samples.

Results

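The 9 transcription factor genes Erg, Fli1, Ets1, Ets2, Elk3, Tal1, Gata2, Sox7 and Sox18, which mark or pattern endothelial cells, were taken by symbol from a table of 17915 coding genes, and all 9 were found. They were compared between 2 sorted populations of mouse lung endothelial cells, read by bulk RNA sequencing in 4 libraries. Every mouse carried Cdh5-CreER;aSMA-LSL-Dre;NR1, was given tamoxifen 5 times and was studied 6 weeks after transverse aortic constriction, a narrowing of the aorta used here to induce lung fibrosis. Cdh5-CreER is a recombinase that tamoxifen switches on in endothelium, the Dre recombinase follows the alpha smooth muscle actin gene, and the labels do not spell out NR1. ZsGreen+ cells were endothelial cells with no recorded actin activation, and tdTomato+ cells were endothelial cells in which that gene had been active at some time, however briefly. Each population had 2 libraries, labelled as biological replicates. Every library came from operated mice, so the comparison is between populations sorted by reporter and not between operated and healthy lungs. The labels give neither the age of the mice nor whether libraries came from separate or pooled animals, so a p-value here reflects only how far these libraries differ among themselves.

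ETS factors bind DNA at a short GGAA core, and ERG and FLI1 together hold many endothelial genes switched on. TAL1, a basic helix-loop-helix protein also called SCL, works in a complex with LMO2, LDB1 and a GATA factor, which in endothelium is mostly GATA2. SOX7, SOX17 and SOX18 form the SoxF group of HMG-box proteins, which act redundantly in vessel growth and arterial identity, and SOX18 switches on Prox1 when lymphatic vessels form. Several of these genes are also active in blood cells, among them Fli1, Ets1, Erg, Tal1 and Gata2.

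The RefSeq promoter table for GRCm38.p6 held 5 of the 9 factors with 9 starts in all, and 4 of these stretches are printed. Elk3 and Erg are shown because their levels followed each other most closely over the libraries, Ets2 because it alone had groups that did not overlap in CPM, and Tal1 because it is a textbook target of GATA and ETS proteins. The choice was made after the values were seen. Each stretch is the 250 bases before a start, read 5′ to 3′ on the strand of the gene. Capitals mark 3 motifs searched on either strand. The ETS core is GGAA, the motif bound by GATA proteins was searched as AGATAA, and the motif bound by SOX proteins was searched as ACAAT. A capital run may therefore be a motif or its reverse complement. No marked match overlaps another. The Erg stretch precedes the innermost of its 3 listed starts, and the Tal1 stretch the outermost of its 2.
Elk3, minus strand, chr10:93311160-93311409: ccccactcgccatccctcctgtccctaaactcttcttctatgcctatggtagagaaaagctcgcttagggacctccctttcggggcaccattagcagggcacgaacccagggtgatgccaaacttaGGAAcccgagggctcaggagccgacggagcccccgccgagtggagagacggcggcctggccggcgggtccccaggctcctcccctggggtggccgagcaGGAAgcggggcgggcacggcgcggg
Erg, minus strand, chr16:95459349-95459598: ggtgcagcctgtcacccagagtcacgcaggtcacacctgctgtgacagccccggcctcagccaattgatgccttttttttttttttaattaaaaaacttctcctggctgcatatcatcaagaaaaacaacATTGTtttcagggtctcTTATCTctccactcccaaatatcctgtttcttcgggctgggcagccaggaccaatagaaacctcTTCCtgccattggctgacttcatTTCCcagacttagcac
Ets2, plus strand, chr16:95702157-95702406: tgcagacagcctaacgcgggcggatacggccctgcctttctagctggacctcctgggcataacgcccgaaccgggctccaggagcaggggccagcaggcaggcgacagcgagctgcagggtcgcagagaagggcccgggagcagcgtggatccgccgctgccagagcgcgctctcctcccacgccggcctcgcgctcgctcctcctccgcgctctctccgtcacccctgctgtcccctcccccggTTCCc
Tal1, plus strand, chr4:115056176-115056425: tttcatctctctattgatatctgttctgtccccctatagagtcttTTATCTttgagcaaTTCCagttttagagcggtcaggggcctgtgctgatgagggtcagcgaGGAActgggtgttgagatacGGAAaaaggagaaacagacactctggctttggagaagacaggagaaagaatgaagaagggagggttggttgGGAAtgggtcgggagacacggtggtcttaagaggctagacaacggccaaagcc

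The Tal1 stretch held 4 ETS cores and 1 GATA motif, the Erg stretch 2 ETS cores, 1 GATA and 1 SOX motif, the Elk3 stretch 2 ETS cores and the Ets2 stretch 1. Of 32851 stretches of that length in the table, 93.4% held the ETS core, 9.99% the GATA motif and 27.7% the SOX motif. The ETS core is thus common to nearly all promoters, with a median of 3 matches per stretch. The other start of Tal1 held 3 ETS cores and 0 GATA motifs. Among the 9 starts only the printed ones of Erg and Tal1 held a GATA motif, and only that of Erg a SOX motif. At the outermost start of Erg none of these motifs was found among the 250 bases, which says only that these letters are not in that window. The deposited values are per gene, so which of several starts was used cannot be told apart.

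None of the 9 factors differed between tdTomato+ and ZsGreen+ cells by edgeR's quasi-likelihood test over all genes. Adjusted p-values ran from 0.458 for Ets2 to 0.993 for Erg. At an unadjusted p under 0.05 the count was 1 factor, Ets2, and DESeq2 and limma-voom also called 0 of the 9. Among all 13177 genes tested edgeR called 40, or 0.304%, with 0.167% higher and 0.137% lower in tdTomato+ cells. The median log2 fold change of the factors, tdTomato+ over ZsGreen+, was -0.05 against -0.0068 over all genes tested, and their median absolute log2 fold change was 0.073 against 0.22. Of the 9 factors, 7 had an absolute change under that median of all genes. All 9 passed the filter on low counts, with 1401 to 13253 counts per library, which puts counting error alone at no more than 2.67%. Each factor's 95% interval from edgeR, not adjusted for the number of genes, lay inside a 2-fold change either way.

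**Figure D1:**
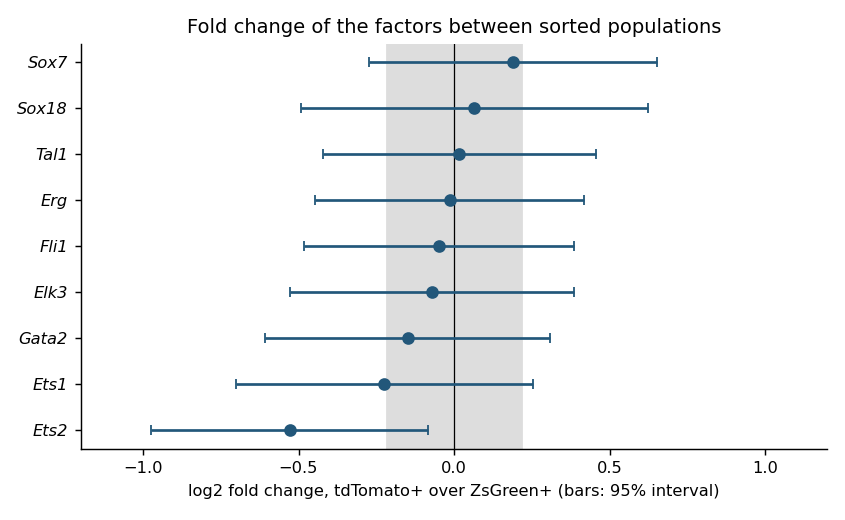
Log2 fold change (tdTomato+ over ZsGreen+) of each factor with its unadjusted 95% interval from edgeR, n = 2 libraries per group. The grey band spans the median absolute change of all genes tested, 0.22 either way. Of the 9 intervals, 8 cross 0 and that of Ets2 runs from -0.97 to -0.08.

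The recorded gene itself differed in the same libraries. Acta2, alpha smooth muscle actin, stood at 304 and 528 CPM in the tdTomato+ libraries against 87.6 and 82.9 CPM in the ZsGreen+ libraries, a log2 fold change of 2.29 (SE 0.29, edgeR adjusted p = 0.0432). That call ended without tdTomato+ replicate 2 (log2 fold change 1.86, edgeR adjusted p = 0.126) and without ZsGreen+ replicate 2 (2.24, edgeR adjusted p = 0.111). CPM are counts scaled to a common library size after TMM correction. The libraries held 17050673 to 18574737 counts over coding genes. All 12 endothelial markers examined were present, and their summed level was 11780 and 11770 CPM in the tdTomato+ libraries against 15410 and 13560 CPM in the ZsGreen+ libraries. Of the 12, 10 had a log2 fold change below 0 and 0 were called by edgeR. Without overlap in CPM 7 were lower and 1 higher, against 18.2% and 19.9% of all genes tested. In bulk libraries fewer cells of a type and less RNA per cell cannot be told apart.

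ERG, an ETS protein largely restricted to endothelium among adult lung cells, had nearly equal levels in both populations. Erg (NCBI Gene 13876, chr16:95359169-95586600) stood at 166 and 174 CPM in the tdTomato+ libraries against 154 and 188 CPM in the ZsGreen+ libraries. The tdTomato+ libraries both lay between the ZsGreen+ libraries. The fold was 0.99 with a 95% interval of 0.734 to 1.34 (log2 fold change -0.014, SE 0.18, edgeR adjusted p = 0.993).

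FLI1, the closest relative of ERG, showed the same lack of separation. Fli1 (14247, chr9:32422204-32543432) was read at 214 and 185 CPM in the tdTomato+ libraries against 195 and 217 CPM in the ZsGreen+ libraries, with 1 library of each group high and 1 low. Its fold was 0.966 (95% interval 0.716 to 1.31, edgeR adjusted p = 0.975). Within a library the Fli1 to Erg ratio of TPM, a transcript level scaled by gene length, was 1.27 and 1.05 in tdTomato+ cells and 1.25 and 1.14 in ZsGreen+ cells. The Fli1 span holds an annotated antisense gene, Gm27201, and strand was not stated, so reads of the pair cannot be told apart.

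ETS1 and ETS2 are the founding members of the family and act downstream of growth factor signalling through Ras and MAP kinase. Ets1 (23871, chr9:32636241-32757820) stood at 332 and 295 CPM in the tdTomato+ libraries against 327 and 406 CPM in the ZsGreen+ libraries. One ZsGreen+ library was the highest of the 4 and the other lay between the tdTomato+ libraries (fold 0.856, 95% interval 0.615 to 1.19, edgeR adjusted p = 0.857). Ets1 also holds an antisense gene, Gm27240.

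Ets2 had the largest difference among the 9 factors, and it did not pass the test over all genes. Ets2 (23872, chr16:95702407-95721049) stood at 263 and 259 CPM in the tdTomato+ libraries against 345 and 407 CPM in the ZsGreen+ libraries. Both tdTomato+ libraries lay below both ZsGreen+ libraries, and the tdTomato+ libraries lay close together. The group means were 261 ± 2.67 and 376 ± 43.7 CPM (SD, n = 2). The fold was 0.693 with a 95% interval of 0.509 to 0.944 (log2 fold change -0.53, SE 0.19, unadjusted p = 0.0266, edgeR adjusted p = 0.458). Ets2 was the only factor whose groups did not overlap in CPM, lower in tdTomato+ cells, against 18.2% of all genes tested that were separated in that direction, 19.9% in the other and 38.1% in either. An unadjusted p under 0.05 was found for 8.77% of all genes.

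ELK3, also called NET, is a ternary complex factor that partners with serum response factor and represses genes until MAP kinase signalling turns it into an activator. Elk3 (13713, chr10:93247415-93311159) was read at 217 and 212 CPM in the tdTomato+ libraries against 199.8 and 251 CPM in the ZsGreen+ libraries. As with Erg, the tdTomato+ libraries lay between the ZsGreen+ libraries (fold 0.951, 95% interval 0.693 to 1.3, edgeR adjusted p = 0.97). The end of Elk3 overlaps Cdk17, a coding gene on the opposite strand, so part of its reads may belong to that gene.

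**Figure D2:**
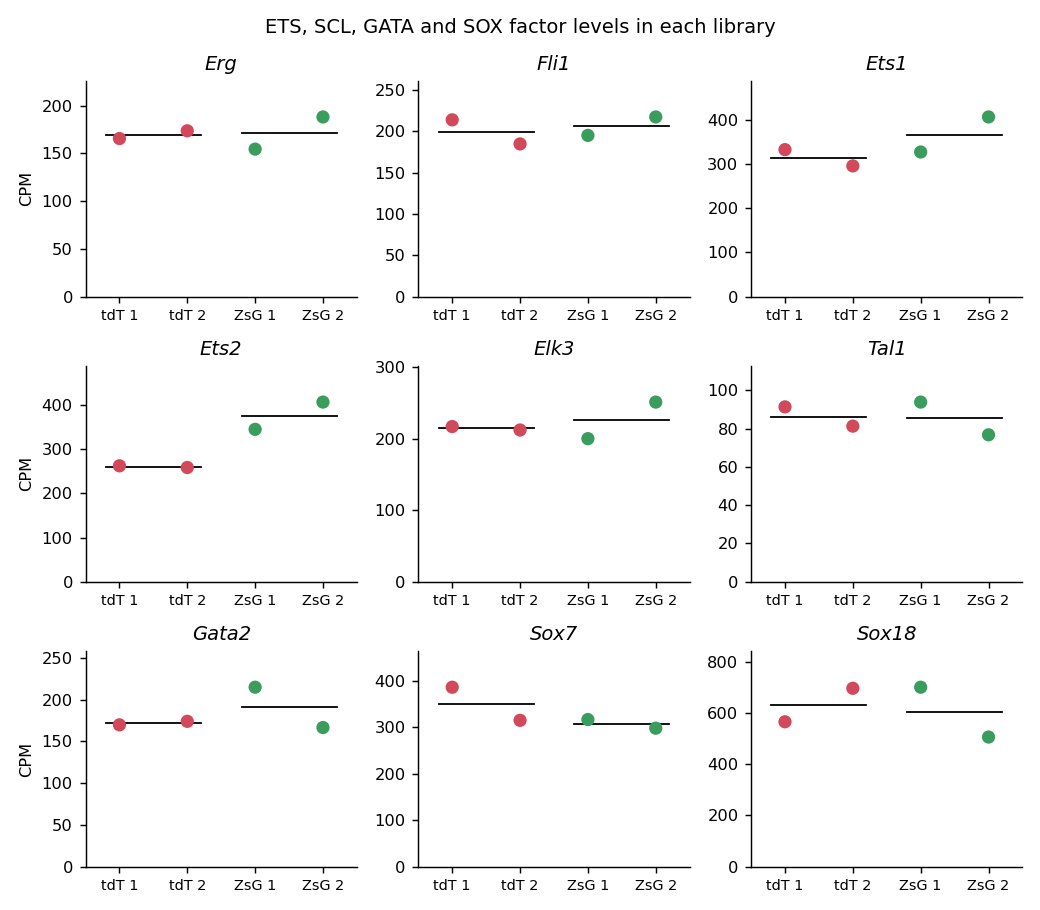
CPM of each factor in the 4 libraries (tdT 1 and 2, tdTomato+ replicates; ZsG 1 and 2, ZsGreen+ replicates), with black lines at the group means and axes from 0. Ets2, at 263 and 259 against 345 and 407 CPM, is the only panel in which the groups do not overlap.

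Within the pooled TPM of the 5 ETS factors, the share of Ets2 was lower and those of Erg, Fli1 and Elk3 higher in both tdTomato+ libraries than in either ZsGreen+ library. Ets2 took 23.6% and 24.5% of the pool in tdTomato+ cells and 30.3% and 29.7% in ZsGreen+ cells. Erg took 17% and 18.8% against 15.4% and 15.7%, and Elk3 17.1% and 17.6% against 15.2% and 16.3%. These 3 shares did not overlap between the groups, and shares of one pool are bound to move against each other. The shares of Fli1, 21.6% and 19.7% against 19.2% and 17.8%, were likewise apart, while Ets1 overlapped at 20.7% and 19.4% against 19.8% and 20.5%. The Ets2 to Erg ratio of TPM, which does not depend on how libraries are scaled, was 1.38 and 1.3 in tdTomato+ cells and 1.96 and 1.89 in ZsGreen+ cells. With 2 against 2 libraries an exact two-sided permutation test cannot go below 0.333, so no p is given for these ratios, which were chosen after the values were seen.

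The summed TPM of the 5 ETS factors did not separate the populations. It was 538 and 485 in tdTomato+ cells and 446 and 632 in ZsGreen+ cells, so that both extremes were ZsGreen+ libraries.

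**Figure D3:**
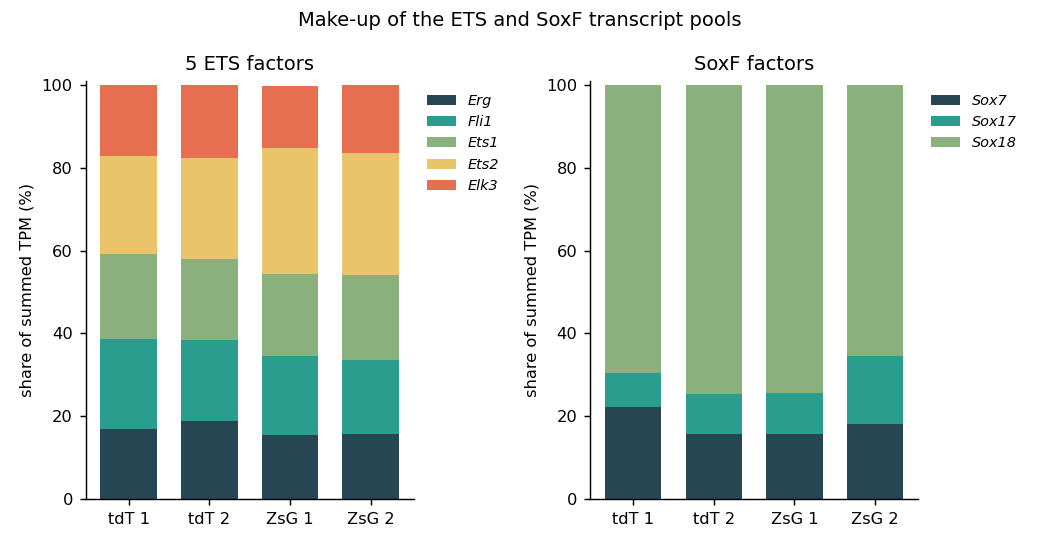
Share of summed TPM, in percent, taken by each of the 5 ETS factors (left) and by the SoxF factors (right) in each library. Ets2 takes 30.3% and 29.7% of the ETS pool in ZsGreen+ libraries and 23.6% and 24.5% in tdTomato+ libraries, and Sox18 takes 65.4% to 74.6% of the SoxF pool.

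Tal1 and Gata2, which encode partners in one DNA-bound complex, were close to equal in the populations. Tal1 (21349, chr4:115056426-115071755) stood at 91.3 and 81.3 CPM in the tdTomato+ libraries against 93.8 and 76.7 CPM in the ZsGreen+ libraries, the ZsGreen+ libraries being the highest and the lowest. Its fold was 1.01 (95% interval 0.747 to 1.37, edgeR adjusted p = 0.992). Gata2 (14461, chr6:88193891-88207032) stood at 169.8 and 174 CPM in the tdTomato+ libraries against 215 and 167 CPM in the ZsGreen+ libraries, with a fold of 0.902 (95% interval 0.656 to 1.24, edgeR adjusted p = 0.909). One ZsGreen+ library was above the other 3, which lay close together. The Tal1 to Gata2 ratio of TPM was 0.414 and 0.359 in tdTomato+ cells and 0.337 and 0.353 in ZsGreen+ cells.

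Sox7 and Sox18 were the factors with the highest TPM. Sox7 (20680, chr14:63943706-63950732) stood at 387 and 315 CPM in the tdTomato+ libraries against 317 and 298 CPM in the ZsGreen+ libraries, with 1 tdTomato+ library above the rest (fold 1.14, 95% interval 0.828 to 1.57, edgeR adjusted p = 0.884). Sox18 (20672, chr2:181669837-181671640) stood at 565 and 696 CPM in the tdTomato+ libraries against 700.0 and 506 CPM in the ZsGreen+ libraries. Each group held 1 high and 1 low library, and the fold was 1.05 with a 95% interval of 0.711 to 1.54 (edgeR adjusted p = 0.975).

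Sox17, the remaining SoxF gene and an arterial factor, was not among the 9 but is their nearest relative. It stood at 164 and 214 CPM in the tdTomato+ libraries against 218 and 304 CPM in the ZsGreen+ libraries, a log2 fold change of -0.47 (SE 0.24, edgeR adjusted p = 0.683) that did not pass the test. Sox18 took 69.5% and 74.6% of the SoxF TPM in tdTomato+ cells and 74.3% and 65.4% in ZsGreen+ cells, and Sox17 8.42% and 9.63% against 9.96% and 16.6%. The second ZsGreen+ library thus had the largest Sox17 share and the smallest Sox18 share of the 4.

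By length-scaled level, Sox18 led with a mean of 645 TPM over the 4 libraries (548 to 750), above 98.4% of genes in the table. Sox7 followed at 162 TPM and Ets2 at 142 TPM, and their ranges overlapped. Ets1 (106), Fli1 (103), Gata2 (89.0), Erg (87.8) and Elk3 (86.9 TPM) came next, each with a range that overlapped its neighbour's. Ets2 was nevertheless above Ets1 in 4 of 4 libraries, while Ets1 exceeded Fli1 in 2 and Erg exceeded Elk3 in 2. Tal1, at 29.9 to 37.4 TPM, lay below every other factor in each library and still above 78.1% of genes. The highest library exceeded the lowest by 1.09 times for Gata2, the steadiest in TPM, and by 1.58 times for Ets2.

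**Figure D4:**
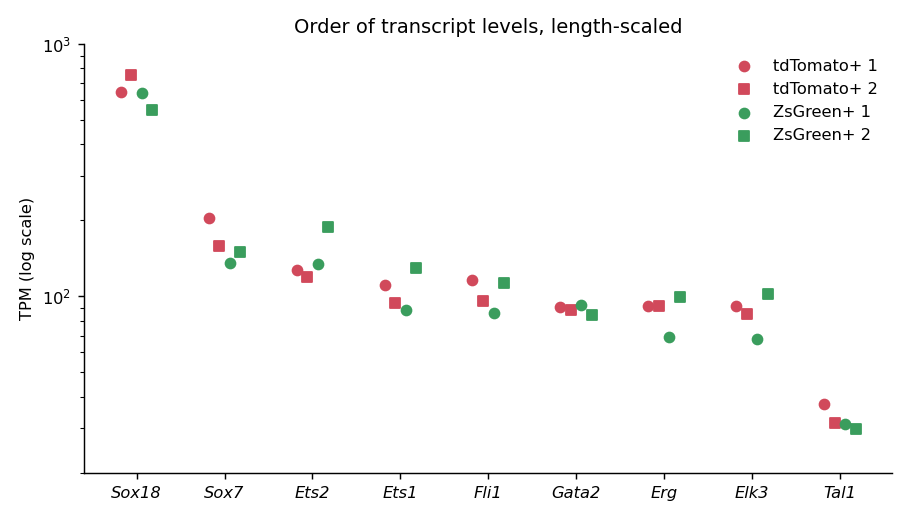
TPM of each factor in each library on a log axis, ordered by the mean over 4 libraries (circles, replicate 1; squares, replicate 2). Sox18 at 548 to 750 TPM and Tal1 at 29.9 to 37.4 TPM stand apart from the other 7 factors.

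In TPM the libraries of Tal1, Sox7 and Sox18 did not overlap between groups and were higher in tdTomato+ cells, while in CPM they overlapped. Tal1 stood at 37.4 and 31.6 TPM against 31.1 and 29.9 TPM, Sox7 at 204 and 159 against 135 and 150.4 TPM, and Sox18 at 643 and 750.2 against 639 and 548 TPM. The TPM scale moved the median difference of all genes by 0.15 on the log2 scale towards tdTomato+ cells, and of all genes tested 28.8% were higher and 8.17% lower without overlap in TPM, 37% in all. Ets2 was the 1 factor lower without overlap on this scale too. Relative to that shift the log2 differences of TPM plus 1 were 0.021 for Tal1, 0.19 for Sox7, 0.083 for Sox18 and -0.52 for Ets2, and limma called none of the 9 on this scale.

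The ETS factors and the other factors differed between the 2 ZsGreen+ libraries in opposite directions. ZsGreen+ replicate 2 was above replicate 1 by 0.29 (Erg), 0.16 (Fli1), 0.31 (Ets1), 0.24 (Ets2) and 0.33 (Elk3) on the log2 scale of CPM. For Tal1, Gata2, Sox7 and Sox18 the same difference was -0.29, -0.37, -0.087 and -0.47. Across the 7200 genes averaging 20 CPM or more its median was -0.043 and its median absolute size 0.27, so gaps of this size were common between these libraries. Erg and Elk3 were the closest pair of the 9 over the 4 libraries, at a distance of 0.096 between centred log2 CPM values, and Ets2 and Sox18 the farthest at 0.81.

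The genes closest to Ets2 in pattern, among 10359 others averaging 5 CPM or more, were Slco2a1, Cnksr3 and Apln. Slco2a1, a prostaglandin transporter, stood at 681 and 693 CPM in the tdTomato+ libraries against 907 and 1052 CPM in the ZsGreen+ libraries. Cnksr3, a scaffold of Ras signalling, stood at 39.0 and 36.6 against 49.1 and 57.5 CPM, and Apln, the peptide apelin, at 122 and 127 against 169 and 193 CPM. Their log2 fold changes, -0.51, -0.50 and -0.54, did not pass edgeR's test (adjusted p from 0.381 to 0.503). Likeness over 4 libraries is a description of these libraries only.

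Relatives, partners and known targets of the factors made up 8 lists of 81 genes, of which 61 were tested. Of these 1, Vcam1, was called by edgeR, against 0.304% of all genes tested. DESeq2 called 6 of the 61, where it called 330 of all genes tested, or 2.5%, and limma-voom called 1, against 0.25% of all genes. Of 21 other ETS genes, 14 were tested and 0 were called by edgeR, DESeq2 or limma-voom, with 0 at an unadjusted p under 0.05 and a median log2 fold change of 0.17. Spi1, the myeloid ETS factor PU.1, stood at 34.9 and 22.5 CPM in the tdTomato+ libraries against 26.8 and 6.14 CPM in the ZsGreen+ libraries (0.80, SE 0.61), and edgeR called it without ZsGreen+ replicate 1 (2.23, adjusted p = 0.0292). Elf1 (0.25), Etv5 (0.37) and Elf4 (0.23) also missed the threshold. Etv2, the ETS factor that specifies endothelium in the embryo, was at 0 counts in all 4 libraries.

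Among the other GATA genes and their FOG cofactors, 4 of 7 were tested and 0 were called by edgeR or limma-voom. At an unadjusted p under 0.05 there was 1, against 8.77% of all genes. That gene was Gata6, at 46.9 and 67.4 CPM in the tdTomato+ libraries against 23.6 and 21.6 CPM in the ZsGreen+ libraries, without overlap. It differed by 1.34 on the log2 scale (SE 0.24, edgeR adjusted p = 0.115), DESeq2 called it (adjusted p = 0.000377), and edgeR did so without ZsGreen+ replicate 1 (1.4, adjusted p = 0.0481) and without a filter on low counts (adjusted p = 0.034). Fibroblast and alveolar epithelial cells also express Gata6. Fibroblast and mural markers stood at 241 and 438 CPM in sum in the tdTomato+ libraries and 98.1 and 122 CPM in ZsGreen+ cells, and 10 of 10 had a log2 fold change above 0. Alveolar epithelial markers stood at 386 and 465 against 256 and 143 CPM, and 7 of 8 were above 0. The part of these cells in the Gata6 level was not tested. The FOG genes Zfpm2 (0.94, SE 0.59) and Zfpm1 (-0.22) and Gata3 (-0.073) did not pass. Gata1 was at 0 counts in every library.

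Among partners of TAL1, 0 of 7 were called by edgeR, DESeq2 or limma-voom, with 0 at an unadjusted p under 0.05 and a median log2 fold change of -0.049. Lmo2, the bridging protein of the complex, stood at 142 and 176 CPM in the tdTomato+ libraries against 142 and 158 CPM in the ZsGreen+ libraries (0.083, SE 0.19). The E-proteins that pair with TAL1 had log2 fold changes of -0.32 (Tcf3), 0.26 (Tcf4) and 0.18 (Tcf12), and the TAL1 relative Lyl1 one of -0.21. None of these passed. In the SOX family 8 of 14 genes beside Sox7 and Sox18 were tested, 0 were called by edgeR, DESeq2 or limma-voom, and 0 had an unadjusted p under 0.05. Sox4 stood at 194 and 206 against 187 and 161 CPM (0.20, SE 0.18), while Sox5 (-1.41, SE 0.76) and Sox9 (-0.82, SE 0.76) lay under 10 CPM in every library.

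The median log2 fold change of 16 known ETS targets was -0.14, with 4 above and 12 below 0. None was called by edgeR or limma-voom, 5 had an unadjusted p under 0.05, against 8.77% of all genes, and DESeq2 called 3, Vwf, Nos3 and Cldn5, against 2.5% of all genes. Vwf, von Willebrand factor, stood at 2006 and 2961 against 947 and 845 CPM (log2 fold change 1.47, SE 0.25, edgeR adjusted p = 0.103). Nos3, endothelial nitric oxide synthase, stood at 201 and 322 against 107 and 138 CPM (1.09, SE 0.27, edgeR adjusted p = 0.231). Cldn5, the tight junction claudin, stood at 407 and 533 against 769 and 915 CPM (-0.84, SE 0.22, edgeR adjusted p = 0.272). Vwf and Nos3 were higher and Cldn5 and Apln lower in both tdTomato+ libraries than in either ZsGreen+ library. Erg and Fli1 levels overlapped. Over the 16 targets 3 were higher and 6 lower without overlap in CPM, against 19.9% and 18.2% of all genes. edgeR called Vwf without ZsGreen+ replicate 1 (1.56, adjusted p = 0.0345) and without a filter on low counts (adjusted p = 0.0203), and limma called it on TPM plus 1 (adjusted p = 0.0463). Apln and Kdr, both on the ETS target list, are markers of aerocytes, the alveolar capillary cells called aCap. Both were among the 8 aCap markers read here. These 8 summed to 598 and 540.0 CPM in the tdTomato+ libraries against 834 and 900.1 CPM in the ZsGreen+ libraries. Most of that sum was Apln and Kdr themselves, with Kdr at 377 and 300 against 422 and 454 CPM. The median log2 fold change of the 8 was -1.01. All 8 were below 0, and 7 were lower without overlap between groups, against 18.2% of all genes. The other, Ednrb, overlapped at 9.63 and 22.5 against 11.8 and 20.6 CPM, with a log2 fold change of -0.01. By edgeR 1, Prx, was called, against 0.137% of all genes called lower. The unadjusted p was under 0.05 for 6, against 8.77% of all genes. DESeq2 called 4 and limma-voom 1, against 2.5% and 0.25% of all genes. Markers of general capillary cells, gCap, summed to 6441 and 6618 against 7912 and 6204 CPM, with 7 of 8 below 0. That sum was mostly Plvap, at 4022 and 4437 against 5206 and 3351 CPM. Without overlap 4 were lower and 1 higher, against 18.2% and 19.9% of all genes, and edgeR and limma-voom called 0. At an unadjusted p under 0.05 there were 4, against 8.77% of all genes, and DESeq2 called 3, against 2.5%. The part of capillary cell types in the levels of Apln, Kdr and Ets2 was not tested.

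Of 4 genes that ERG is known to hold down, edgeR called 1, Vcam1, higher in tdTomato+ cells, against 0.167% of all genes. Vcam1, an adhesion molecule for leukocytes and also a GATA2 target, stood at 294 and 276 CPM in the tdTomato+ libraries against 83.2 and 58.8 CPM in the ZsGreen+ libraries (log2 fold change 2.00, SE 0.22, edgeR adjusted p = 0.0304). The call ended without tdTomato+ replicate 1 (1.95, adjusted p = 0.0761) and without tdTomato+ replicate 2 (2.07, adjusted p = 0.126). Cd44, a hyaluronan receptor, stood at 97.4 and 112 against 55.4 and 44.0 CPM (1.07, SE 0.20, edgeR adjusted p = 0.122), DESeq2 called it (adjusted p = 0.000943), and edgeR did so without ZsGreen+ replicate 1 (1.25, adjusted p = 0.0253) and without a filter on low counts (adjusted p = 0.0441). Icam1 (0.39, SE 0.40) did not pass. Leukocyte markers, 15 of 16 tested, summed to 4181 and 2171 CPM in the tdTomato+ libraries against 2425 and 527 CPM in the ZsGreen+ libraries, mostly Lyz2. Of the 15, 14 had a log2 fold change above 0 and 6 were higher without overlap, against 19.9% of all genes. Fibroblast and mural markers, given beside Gata6, were above 0 in 10 of 10. The part of leukocytes, fibroblasts and mural cells in the levels of Vcam1, Cd44 and Icam1 was not tested.

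Among 6 GATA2 targets Vcam1 was the single edgeR call, against 0.304% of all genes, and the median log2 fold change was 0.21. Kdr, the main VEGF receptor (-0.37), Emcn, endomucin (0.30), and Edn1, endothelin 1 (-0.43), did not pass. SoxF targets had a median of -0.23 over 8 tested, with 0 called by edgeR or limma-voom. At an unadjusted p under 0.05 there were 2, Cldn5 and Prox1, against 8.77% of all genes. DESeq2 called 1, against 2.5%, and that was Cldn5, already counted among the ETS targets. The lymphatic regulator Prox1 stood at 4.13 and 3.78 CPM in the tdTomato+ libraries against 6.90 and 17.9 CPM in the ZsGreen+ libraries (-1.65, SE 0.49, edgeR adjusted p = 0.34), beside Sox18 levels that overlapped. Without ZsGreen+ replicate 1 edgeR called Prox1 (-2.17, adjusted p = 0.0267). Notch4 (-0.28) and Cdh5, VE-cadherin (-0.42), did not pass. Of 8 lymphatic markers, Prox1 included, edgeR called 4 lower in tdTomato+ cells (Thy1, Fxyd6, Mmrn1 and Reln), against 0.137% of all genes. DESeq2 called 6 and limma-voom 2, against 2.5% and 0.25% of all genes in either direction. In CPM 7 of the 8 were lower without overlap, against 18.2% of all genes, while Lyve1 overlapped with a log2 fold change of 0.42. Their summed level overlapped too, at 720.0 and 1015 CPM in the tdTomato+ libraries against 982 and 1282 CPM in the ZsGreen+ libraries. Lyve1 was the largest part of that sum in every library, at 503 and 840 against 407 and 593 CPM. The sum therefore says little about the other 7 markers. The part of lymphatic cells in the Prox1 level was not tested.

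**Figure D5:**
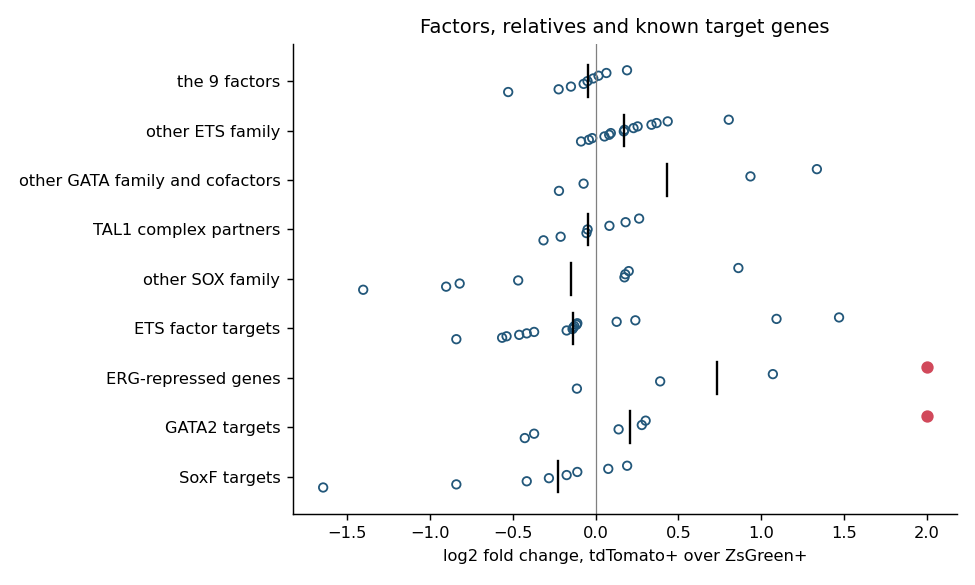
Log2 fold change (tdTomato+ over ZsGreen+) of every tested gene in the 9 factors, their relatives and their known targets; black lines are list medians and filled red points are genes called by edgeR. The 9 factors lie between -0.53 and 0.19, and the single called gene, Vcam1 at 2.00, appears in 2 lists.

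Blood cells also express some of these factors, and markers of such cells were read in the same libraries. Mast cell genes Cpa3, Ms4a2 and Tpsb2 were at 0 counts in all 4 libraries, and 2 of the list of 8 mast cell and basophil genes passed the filter. Those 2 were higher in tdTomato+ cells without overlap, against 19.9% of all genes tested, and were not called. Hdc, which makes histamine, stood at 15.7 and 16.3 against 9.49 and 5.64 CPM (edgeR adjusted p = 0.364), and the protease gene Mcpt4 at 2.37 and 4.51 against 0.823 and 0.822 CPM (edgeR adjusted p = 0.321). The list summed to 18.1 and 21.0 CPM in the tdTomato+ libraries against 10.7 and 6.46 CPM in the ZsGreen+ libraries, and its part in the Gata2 level was not tested. Megakaryocyte and platelet markers summed to 26.4 and 22.6 CPM in the tdTomato+ libraries against 38.7 and 18.1 CPM in the ZsGreen+ libraries, and erythroid markers to between 15.4 and 35.4 CPM. Gata2 stood at 167 CPM in its lowest library, and the part of megakaryocytes, platelets and erythroid cells in its level was not tested. Leukocyte markers were spread more widely, by the sums given beside Vcam1. What leukocytes add to Fli1 and Ets1 was not tested.

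Without any 1 library, and by every other tool and scaling tried, the count of factors called remained 0. The direction of change was the same under all 13 alternatives for Ets1, Ets2 and Sox7. It turned under at least 1 of them for Erg, Fli1, Elk3, Tal1, Gata2 and Sox18, so no direction is given for these 6. The alternatives reuse the same 4 libraries, so like signs do not establish a direction for Ets1, Ets2 or Sox7. For Ets1 and Sox7 the groups overlapped in CPM and the 95% interval of the log2 fold change crossed 0.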

How the data were processed

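RNA from sorted cells was extracted with a micro-scale kit and amplified over the whole transcriptome before library preparation, per the labels' protocols, which can add spread between libraries. RSEM 1.3.1 and DESeq2 1.4.5 are named in the submitters' processing notes, with the builds mm10 and GRCm38 and no roles. Neither an aligner nor the strand setting is given in the sources used.

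The authors deposited estimated counts, which were not whole for 16.2% to 17.9% of values and were rounded for tests, and TPM, used to compare levels between genes. They also deposited FPKM and a normalized count signal, neither used here. The table gives Erg and Ets2 on a contig with mixed spans, so all printed spans are from RefSeq for GRCm38.p6.

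edgeR 4.0.16 (R 4.3.3) compared the groups with the quasi-likelihood F-test, TMM factors and filterByExpr at a minimum count of 10, which kept 13177 genes; an adjusted p (Benjamini-Hochberg) under 0.05 was a call. Each SE was taken as |log2 fold change|/sqrt(F), and biological variation (BCV) was 26.1%. The edgeR fit, DESeq2, limma-voom and limma on log2 of CPM plus 1 were first run on simulated counts, and the remaining settings were not. Other settings tried were DESeq2 1.42.0, limma-voom (limma 3.58.1), RLE or upper quartile factors, other filters, each library left out, a replicate block, and limma on log2 of TPM plus 1 or 0.1.

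The factors, 18 further gene lists and the comparisons were chosen with earlier results of these data known. Named are the 9 factors, Acta2, Sox17, Lmo2, up to 4 genes per list of relatives and targets with the smallest p at a mean of 1 CPM or more, and the 3 genes nearest in pattern to the factor with the smallest p. Of the genes this rule names, 1 is not reported here. Marker lists of cell types are given as sums and counts. Etv2, Gata1, Sox11, Lyz2, Cd79a, Ms4a1, Cd3e, Lyve1, Ednrb, Plvap and the mast cell genes were named after their values were seen.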

Additional observations from a re-analysis of the deposited data

How the results depend on the processing

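The 9 factors gave 0 calls under all 13 alternatives. The count of all genes called moved from 40 to 330 with DESeq2, 128 without a filter on low counts, 22 with TPM plus 0.1, and to between 4 and 304 without 1 library; the extremes were tdTomato+ replicate 2 and ZsGreen+ replicate 1. Fitting the replicate number as a block gave 934 calls. Deviations of same-numbered libraries correlated at 0.51 over 10360 genes, but 2 pairs do not show that the numbers pair the samples. Calls among relatives and targets moved from 1 to 6 with DESeq2, 4 without a filter, 8 with the replicate block (Vcam1, Gata6, Vwf, Nos3, Cldn5, Cd44, Spi1 and Prox1), 2 with TPM plus 1, and to between 0 and 6 without 1 library. With the block no factor was called (lowest adjusted p = 0.181).

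Small fold changes turned direction, and the cause was not tested. Without 1 library the log2 fold change ran from -0.147 to 0.132 for Erg, -0.161 to 0.0741 for Fli1, -0.225 to 0.0983 for Elk3, -0.124 to 0.172 for Tal1, -0.325 to 0.0479 for Gata2 and -0.154 to 0.32 for Sox18. Among other genes it ran from -0.0601 to 0.229 for Lmo2, -0.104 to 0.52 for Elf4, -0.209 to 0.0781 for Gata3, -0.629 to 0.0835 for Tcf3, -0.425 to 0.0144 for Lyl1, -1.71 to 0.312 for Sox9 and -0.102 to 1.14 for Icam1. Erg also turned to 0.0309 with upper quartile factors and to 0.00067 with a stricter filter on low counts. On TPM plus 1 and plus 0.1, which move all genes upward, values above 0 were 0.145 and 0.147 for Erg, 0.1 and 0.101 for Fli1, 0.0815 and 0.0826 for Elk3, 0.0137 and 0.0139 for Gata2, 0.0796 and 0.0861 for Gata3, and 0.1 and 0.101 for the median of the 9 factors. Ets2 stayed between -0.64 and -0.369, with adjusted p from 0.145 to 1. With 2 libraries per group, changes within the printed intervals could not be told from none.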

Other observations

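Sox11, a SOX factor best known from the developing nervous system, followed the replicate number and not the reporter. It stood at 5.28 CPM in tdTomato+ replicate 1 and 9.62 CPM in ZsGreen+ replicate 1, and at 0.105 and 0.493 CPM in the second replicates. The B cell genes Cd79a (5.94, 1.42, 6.39 and 0.712 CPM in tdTomato+ 1 and 2 and ZsGreen+ 1 and 2) and Ms4a1 (1.16, 0.158, 1.39 and 0.0548 CPM) and the T cell gene Cd3e (2.70, 0.683, 2.03 and 0.0548 CPM) were likewise higher in both first replicates. Whether lymphocytes carried the Sox11 reads was not tested.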
